A study of Mus musculus with 16 samples.

Results

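Brown adipose tissue and skeletal muscle of the mouse were compared by the parts of the genome that were open to the Tn5 transposase, which inserts adapters into DNA that nucleosomes leave free (ATAC-Seq). The comparison used 4 of the 16 peak lists of the series, and its members were 28804 regions specific to brown adipose among 91590 regions open in both states of that tissue, and 40526 regions specific to muscle among 110642. A region was open if its −log10 q was at least 2 (a q of 0.01), and specific if it was open fed and fasting in its own tissue and no listed peak of the other tissue overlapped it by 1 bp, fed or fasting. All mice were male and C57BL/6, acquired at 12 weeks of age and acclimatized for at least 10 days. They carried no transgene or drug named in the sources. The 4 groups were Brown_Adipose_Fed, Brown_Adipose_Fasting, Muscle_Fed and Muscle_Fasting, where the fasted mice had no food for 24 h and the fed mice did. Tissue of 3 mice per state was pooled before the assay, the same mice gave both tissues of a state, and neither the muscle nor the brown adipose depot was named. Each group was therefore 1 library. The fed and fasting libraries served as the 2 libraries of a tissue, and since 2 libraries against 2 cannot reach an exact two-sided p below 0.333, the tissue contrasts below are descriptions with no p.

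Brown adipose tissue burns fat to make heat. Its mitochondria carry UCP1, which lets protons leak back across the inner membrane so that respiration is released as heat instead of ATP. Skeletal muscle contracts through sarcomeres, the repeating units of actin and myosin, when calcium is released from the sarcoplasmic reticulum. Lineage tracing places the origin of interscapular brown adipocytes and of back muscle in the same embryonic tissue, the dermomyotome, where cells with Myf5 or Pax7 can give either type. MYOD1, MYF5, MYOG and MYF6 bind E-boxes and set the muscle fate with MEF2 factors. EBF2, PRDM16, PPARG and C/EBP factors set the brown adipocyte fate.

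The stretches that follow show the DNA at the centres of regions on which the comparison turns. They comprise specific regions around the starts of Ucp1 and Myod1, 3 of the 10 strongest specific regions elsewhere that are nearest to Abcg1, Tead4 and Smyd2, and 1 region that was open only in brown adipose and muscle among the 8 tissues, nearest to Cmya5. Those away from the Ucp1 and Myod1 starts were chosen after their values were seen. Each is 121 bases of GRCm38, plus strand, centred on a summit. Capitals mark matches, on either strand, to the 10 motifs whose shares are given further down.
Ucp1, 63 bp upstream of the start, chr8:83290229-83290349: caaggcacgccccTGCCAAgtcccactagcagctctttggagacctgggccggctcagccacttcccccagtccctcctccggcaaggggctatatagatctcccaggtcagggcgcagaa
Ucp1, 2385 bp upstream, chr8:83287907-83288027: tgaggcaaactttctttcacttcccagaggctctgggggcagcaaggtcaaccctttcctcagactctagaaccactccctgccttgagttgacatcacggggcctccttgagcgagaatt
Ucp1, 11807 bp upstream, chr8:83278485-83278605: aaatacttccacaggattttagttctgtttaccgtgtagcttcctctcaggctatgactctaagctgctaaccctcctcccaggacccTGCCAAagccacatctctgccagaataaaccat
Myod1, 145 bp upstream of the start, chr7:46376269-46376389: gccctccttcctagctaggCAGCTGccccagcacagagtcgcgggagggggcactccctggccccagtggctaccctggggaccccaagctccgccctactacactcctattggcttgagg
Myod1, 5211 bp upstream, chr7:46371203-46371323: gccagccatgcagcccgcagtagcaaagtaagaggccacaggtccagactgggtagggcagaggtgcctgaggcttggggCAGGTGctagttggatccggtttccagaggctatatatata
Myod1, 23027 bp upstream, chr7:46353387-46353507: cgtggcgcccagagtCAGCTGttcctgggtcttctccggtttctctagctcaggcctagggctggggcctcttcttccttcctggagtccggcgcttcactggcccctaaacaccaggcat
Abcg1 intron, specific to brown adipose, chr17:31103134-31103254: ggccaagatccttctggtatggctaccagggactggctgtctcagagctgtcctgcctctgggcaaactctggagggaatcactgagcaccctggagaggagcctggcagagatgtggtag
Tead4 intron, specific to muscle, chr6:128265253-128265373: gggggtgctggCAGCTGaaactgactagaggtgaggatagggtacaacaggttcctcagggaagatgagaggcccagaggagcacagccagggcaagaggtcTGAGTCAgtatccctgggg
Smyd2, intergenic, specific to muscle, chr1:189960643-189960763: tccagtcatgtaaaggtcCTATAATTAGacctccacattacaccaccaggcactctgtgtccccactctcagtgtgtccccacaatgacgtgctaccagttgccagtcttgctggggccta
Cmya5 intron, open only in both tissues, chr13:93135615-93135735: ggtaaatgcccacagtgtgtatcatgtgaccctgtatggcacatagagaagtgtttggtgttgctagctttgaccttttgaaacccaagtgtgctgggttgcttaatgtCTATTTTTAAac
The Ucp1 stretches at the start and 11807 bp upstream held the NFI site TTGGCA as its complement TGCCAA, the 3 Myod1 stretches each held an E-box, the Smyd2 and Cmya5 stretches held a MEF2 consensus, and the Abcg1 stretch held none of the 10 motifs.

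The labels were checked against the marker genes. Strength is given as a rank, the percentile of a peak's p among the regions of its own list, where 100 is the strongest and 0 means that no peak was listed. A promoter's rank is that of its strongest peak within 3000 bp of a start. Ucp1, the uncoupling protein, had a promoter rank of 92.4 in fed and 89.5 in fasting brown adipose and of 0 in both muscle libraries. Myod1, the myogenic regulator, had a promoter rank of 95.1 in fed and 90.5 in fasting muscle, against 26.7 in fed and 0 in fasting brown adipose. Each marker ranked higher in the tissue it stands for, with no overlap between the tissues. Outside the pair, the Ucp1 promoter had ranks of 65.3 and 30.2 in fed and fasting spleen and 9.98 in fed white adipose. The Myod1 promoter had ranks of 92.4 and 92.2 in fed and fasting spleen and 60.2 and 75.8 in heart. In lung it had 77.15 and 26.0, and in kidney 51.65 and 34.8. A peak at either promoter was therefore not confined to its tissue. Whole tissue was assayed, and fewer cells of a type cannot be told apart from less open DNA per cell.

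The 4 lists were of unequal depth and length, and the imbalance ran in opposite directions in the 2 states. The background at a summit, in tags expected by the peak caller, was 12.8 in fed and 6.76 in fasting brown adipose, and 6.39 in fed and 10.6 in fasting muscle, so brown adipose was the deeper library when fed and muscle when fasting. The lists were limited to 300000 rows, and the weakest −log10 q listed was 5.26 in fed brown adipose, 0.649 in fasting brown adipose, 1.58 in fed muscle and 2.80 in fasting muscle. The open sets held 149835, 131688, 159194 and 171079 regions in the same order. Weak peaks of fed brown adipose were therefore not listed, which bears on every muscle-specific count. An equal rank is also not an equal −log10 q across lists. Around Ucp1, a peak of rank 40.4 in fed brown adipose had a −log10 q of 17.6, and a peak of rank 40.2 in fasting brown adipose had 2.49. Gaps in rank between libraries are therefore gaps in order within the lists, not in strength. Counts at a stricter threshold and with thinned tags are given beside the main counts.

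Of the regions open in both states of a tissue, 31.4% in brown adipose and 36.6% in muscle were specific against the other. The specific regions lay farther from gene starts than the rest. A summit within 3000 bp of an annotated start was found in 25.01% of the brown-specific regions (95% exact binomial interval 24.5 to 25.5%, counting error only) and in 38.2% of all brown adipose regions. The same share was 23.2% (22.8 to 23.6%) of muscle-specific regions and 36.5% of all muscle regions. Among the 50499 regions open in all 4 libraries, 47.1% lay at a start. Introns held 56.2% of brown-specific and 64.5% of muscle-specific summits, and intergenic DNA 35.1% and 26.4%. The median rank of brown-specific regions was 60.8 fed and 66.5 fasting, against 69.0 and 74.2 for all brown adipose regions, and that of muscle-specific regions was 59.2 and 55.8, against 68.6 and 66.6. At the threshold, the weakest members had a −log10 q of 2.00022 in fasting brown adipose and 2.00001 in fed muscle, and the strongest regions just outside had 1.99991 and 1.99996. With a −log10 q of at least 6 the counts were 16601 for brown adipose and 21973 for muscle, and with the tags of each library thinned until the background at summits was that of fed muscle they were 22989 and 29202, so muscle had more specific regions under each of these settings. The stricter q was asked of the open regions only. Absence was still judged against every listed peak of the other tissue, so the unequal weakest −log10 q of the lists still bore on it. Thinning did not make the lists equal, since the open sets then still held 99562 to 131594 regions. Each count rests on both states: the fed libraries alone gave 74285 and 80854, and the fasting libraries alone 59172 and 94226.

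Around Ucp1 the brown-specific regions formed a cluster. Within 50 kb of the start lay 16 of them, 12 of which had their summit within 15 kb, where muscle had no listed peak. The region 63 bp upstream of the start (chr8:83289938-83290848) had a rank of 92.4 fed and 82.3 fasting. That 2385 bp upstream (chr8:83287705-83288075) had ranks of 84.7 and 89.5, and gave the promoter rank of the fasting library. Enhancer activity upstream of the mouse Ucp1 gene has long been known from reporter mice. Farther out, the region 5706 bp upstream had ranks of 89.7 and 91.2 with no peak in any of the 6 other tissues, while that 11807 bp upstream had ranks of 92.4 and 90.5 with peaks in white adipose and heart. A region 19738 bp downstream had ranks of 80.4 and 94.7 and was the strongest of this locus that was open in white adipose, fed and fasting.

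Around Myod1 lay 24 muscle-specific regions within 50 kb of the start. The region at the start (chr7:46376104-46377318) had ranks of 95.1 fed and 90.5 fasting. The region 5211 bp upstream (chr7:46370806-46371602) had 96.6 and 95.8, and that 23027 bp upstream (chr7:46352832-46353824) had 95.9 and 94.5. Myod1 is known to be driven by a proximal and a distal upstream enhancer, to which these summits were not matched here. The region 23027 bp upstream had no peak in any of the 6 other tissues, and that 5211 bp upstream had peaks in spleen and heart. Intronic regions of neighbouring genes 27386 and 38073 bp downstream reached ranks of 96.0 and 94.9 fed and 94.9 and 92.4 fasting. Brown adipose was not without peaks there, since both its libraries had a peak, with ranks of 84.6 fed and 87.4 fasting, 20334 and 20350 bp downstream. Muscle had a peak of rank 91.8 fed, with its summit 19709 bp downstream, and of 92.6 fasting, with its summit 20338 bp downstream.

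**Figure D1:**
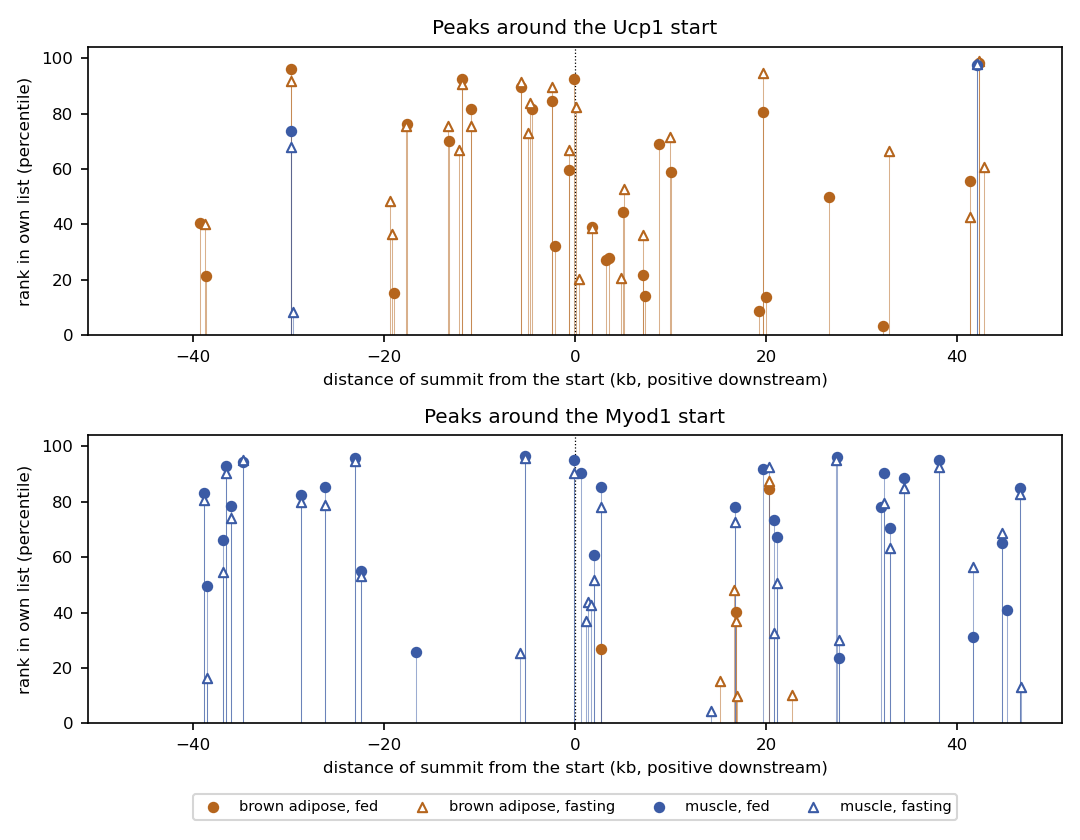
Rank of every listed peak (vertical axis, percentile in its own list) against the distance of its summit from the start of Ucp1 (top) and Myod1 (bottom), in kb, for the 4 libraries. Brown adipose peaks fill the 15 kb around the Ucp1 start, where muscle has none, and muscle peaks lie on both sides of the Myod1 start. Within 15 kb of the Myod1 start brown adipose has a single fed peak, of rank 26.7. Farther downstream it has peaks of higher rank in both states.

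The 12 libraries of the other 6 tissues took no part in choosing the regions. Brown-specific regions were most often open in white adipose, at 38.9% (38.3 to 39.5%), then in kidney at 21.2%, liver at 18.1%, lung at 16.4%, spleen at 7.91% and heart at 4.55%. Muscle-specific regions were open in lung at 15.8%, heart at 14.6%, kidney at 13.1%, spleen at 10.5%, white adipose at 8.23% and liver at 6.97%. White adipose, kidney, liver and lung held a larger share of brown-specific than of muscle-specific regions, and heart and spleen the reverse. White adipose differed most, with 38.9% against 8.23%, and lung least, where the 95% intervals of both tissues overlapped. The shares and their order depended on the threshold. At a −log10 q of at least 6 the share of muscle-specific regions open in heart was 6.24%, below lung and kidney at 10.1% each, while 0.831% of brown-specific regions were open in heart. When any listed peak counted, heart held 41.3% of the muscle-specific regions. By the main rule, all regions of brown adipose were open in white adipose at 67.8%, lung at 55.6% and kidney at 54.5%. In liver, heart and spleen they were open at 47.0%, 45.8% and 39.7%. All regions of muscle were open in lung at 51.4%, white adipose at 50.2% and kidney at 47.1%. In heart, liver and spleen they were open at 45.9%, 37.7% and 37.4%. By that rule each share of specific regions was below the share over all regions of its tissue. A lower share follows in part from how the regions were chosen, since a region open in every tissue cannot be specific. Strength moved with sharing when the specific regions of a tissue were put into 4 bins of equal size by the lower of their 2 ranks. From the weakest to the strongest bin the share of brown-specific regions open in white adipose went from 22.3% to 62.1%, and the share of muscle-specific regions open in heart from 8.90% to 23.0%. No peak in any of the 6 tissues was listed for 5241 brown-specific regions (18.2%) and for 12955 muscle-specific regions (32.0%). In the strongest bin these shares were 8.51% and 28.4%.

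**Figure D2:**
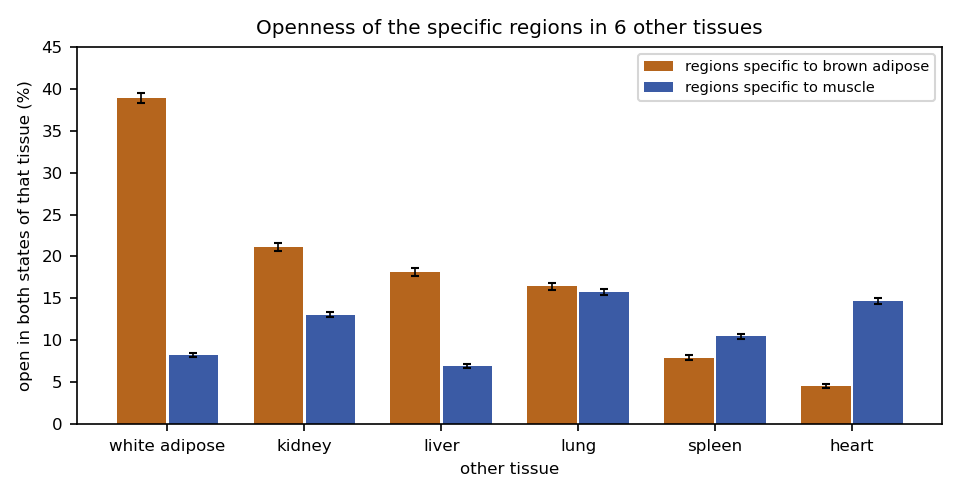
Share of the specific regions of brown adipose and of muscle that were open in both states of each of 6 other tissues (%). Bars are shares of 28804 and 40526 regions and error bars are 95% exact binomial intervals; white adipose stands highest for brown adipose, and heart is the tissue where muscle exceeds brown adipose most.

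The strongest specific regions, ordered by the lower of their 2 ranks, were mostly distal, with 8 of 10 in brown adipose and 9 of 10 in muscle over 3000 bp from every start. For brown adipose they were nearest to Irak1bp1 (98.2 fed, 98.3 fasting), Adamtsl1, 2610528A11Rik, Abcg1, Zfp872, Zfp407, Tcf20, Khdrbs3, Ctso and Gata6. All 10 were also open in white adipose, fed and fasting. The region in an intron of Abcg1 (chr17:31102703-31103643), which codes for a cholesterol exporter, had ranks of 97.6 and 98.4 and peaks in no other tissue than white adipose. For muscle they included regions nearest to Tmem236 (99.6 fed, 99.4 fasting), Aqp4, Tead4, Fxr1, Klhl31, Smyd2, 1700019D03Rik, Aldh1a1 and Olfr1505, and 5 of the 10 were open in heart, fed and fasting. The region in an intron of Tead4 (chr6:128264747-128265677), a TEAD factor of the myogenic programme, had ranks of 99.1 and 99.4, was open in spleen in both states and had peaks in white adipose, heart and lung. That nearest to Smyd2 (chr1:189960373-189961051), a lysine methyltransferase of heart and muscle, had 99.4 and 98.6 and was open in heart.

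Specific regions gathered at some genes. At least 1 brown-specific region was nearest to 8734 of 21911 protein-coding genes (39.9%), and at least 1 muscle-specific region to 8951 (40.9%), while 10 or more were nearest to 528 and 989 genes. In brown adipose the 10 genes with the most were Zeb2 with 57, Ebf1 and Ntrk3 with 48, Prdm16 and Slc24a3 with 44, Sipa1l1 and Tns1 with 42, Adam12 with 40, and Plcb4 and Tenm4 with 38. PRDM16 is a coregulator that holds brown adipocytes to their fate, and EBF1 is an early B-cell factor also active in adipocytes; muscle had 2 and 1 specific regions nearest to them. At other genes of these 10 muscle had more, with 21 at Tns1, 14 at Zeb2, 10 at Tenm4 and 1 to 7 at the rest. In muscle the 10 were Ttn with 159, Rbfox1 with 113, Pde4d with 112, Trdn with 103, Neb and Rora with 98, Sox6 with 97, Kcnma1 with 91, Lpp with 74 and Mef2c with 66. TTN and NEB are the giant proteins that span the sarcomere, and TRDN anchors calcium release; brown adipose had 0, 1 and 1 specific regions nearest to them. It had 22 at Lpp, 21 at Pde4d, 15 at Sox6, 13 at Rora and 10 at Rbfox1, and 3 and 2 at Mef2c and Kcnma1. Long genes and wide gene-free stretches have more room for regions, and gene length was not part of the comparison. The region counts at listed genes further down are out of 28804 brown-specific and 40526 muscle-specific regions over all 21911 genes.

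At promoters the tissues were alike for most genes. Of 17027 protein-coding genes with a peak at the promoter in any of the 4 libraries, 704 (4.13%) ranked at least 20 points higher in both brown adipose libraries than in either muscle library, and 789 (4.63%) ranked higher in muscle by the same rule. With the fed libraries alone these numbers were 1091 and 1479, and with the fasting libraries alone 1506 and 1213, so which tissue had more such promoters turned with the state. No peak at all was listed in either library of the other tissue for 318 and 290 of them. The median difference over all 17027 was −0.47 points fed and 0.15 fasting, brown adipose minus muscle. The 10 widest gaps for brown adipose were at 2610528A11Rik, Zfp872, Atoh1, Krt4, Sec14l4, Galntl5, Krt15, Adtrp, Trem2 and Fcrl1. Adtrp codes for a lipid hydrolase and had ranks of 95.5 fed and 96.0 fasting against 1.74 and 0 in muscle, and Trem2, a lipid receptor of macrophages, had 93.8 and 93.6 against 0 and 0. The 10 widest for muscle were at Stmn4, Ky, Klhl31, Agt, Zfp474, Fsd2, Ppp1r3a, Efcab6, Xirp2 and Asb18, each with no peak in brown adipose. Ky, a muscle protease-like protein whose loss causes scoliosis in mice, had ranks of 97.8 fed and 98.0 fasting, Ppp1r3a, the glycogen-targeting subunit of protein phosphatase 1 in muscle, had 95.6 and 95.3, and Xirp2, an actin-binding protein of the sarcomere, had 94.6 and 94.8. The start of Whamm lies within 6000 bp of that of Fsd2 and can share its peak.

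**Figure D3:**
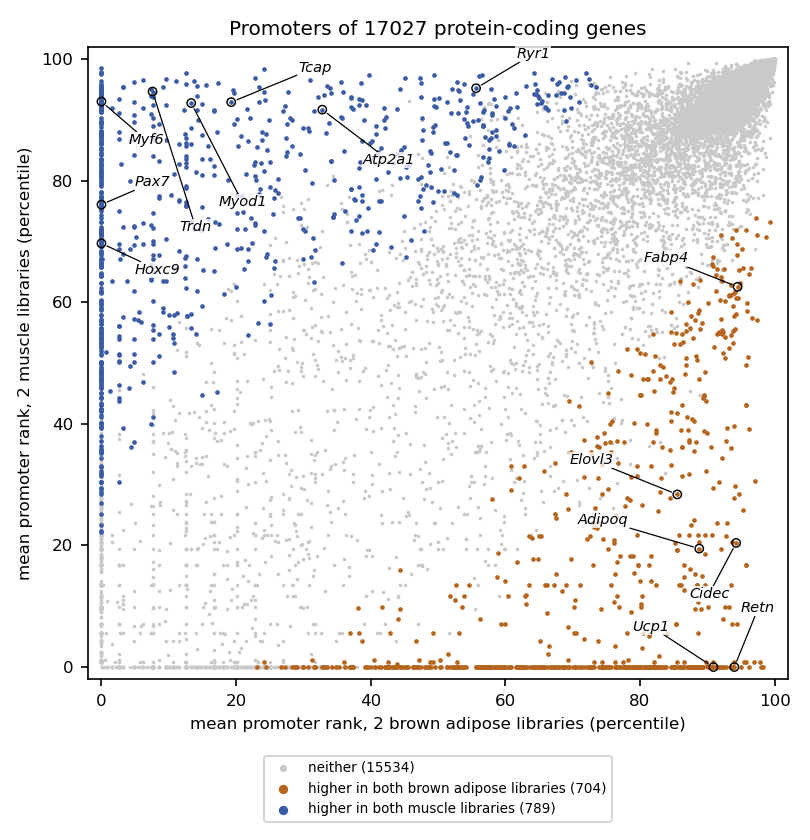
Mean promoter rank of 17027 protein-coding genes in the 2 muscle libraries (vertical axis, percentile) against the 2 brown adipose libraries (horizontal axis), with genes higher by at least 20 points in both libraries of a tissue in colour and 14 listed genes circled. Most genes sit near the top right corner, 704 fall to the lower right and 789 to the upper left.

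The genes of thermogenesis had many brown-specific regions, and Ucp1 and Elovl3 had promoters past the rule. Of 15 thermogenic genes, 2 had promoters higher in brown adipose and 0 in muscle (4.13% and 4.63% of all promoters). Ucp1 is given above, and Elovl3, a fatty acid elongase induced by cold, had ranks of 81.5 fed and 89.6 fasting against 0 and 56.8 in muscle. The start of Pitx3 lies within 6000 bp of that of Elovl3 and can share its peak. The other 13 had promoter peaks in all 4 libraries. Prdm16 had 89.4 and 92.4 in brown adipose and 81.0 and 78.7 in muscle, and Ebf2, a marker of brown preadipocytes, had 95.4 and 98.3 against 97.9 and 96.8. Cidea, a lipid droplet protein, was 15.1 points higher fed and 17.0 fasting, short of the 20 points. A brown-specific region was nearest to 14 of the 15 (39.9% of all genes), and a muscle-specific region to 7 (40.9%). In all, 194 of the 28804 brown-specific and 58 of the 40526 muscle-specific regions lay nearest to the 15 genes. Beside Prdm16 these were most numerous at Ebf2 with 26 and 4, Esrrg with 23 and 23, Lhx8 with 18 and 0, Kcnk3, a potassium channel, with 17 and 0, Ppara, a nuclear receptor of fat oxidation, with 15 and 2, and Ucp1 with 12 and 0. Zfp516 went the other way, with 9 brown-specific and 24 muscle-specific regions.

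The general adipocyte genes had many brown-specific regions, and some of their promoters were past the rule. Of 18, 4 promoters were higher in brown adipose and 0 in muscle, against 4.13% and 4.63% of all promoters. Retn, which codes for resistin, had ranks of 92.3 fed and 95.8 fasting against 0 and 0. Adipoq, the gene of adiponectin, had 85.9 and 91.8 against 39.0 and 0. Cidec, a lipid droplet protein, had 92.1 and 96.5 against 40.8 and 0, and Fabp4, the fatty acid binding protein of adipocytes, had 93.1 and 96.0 against 59.7 and 65.4. In each of these genes the lower brown adipose rank stood above the higher muscle rank by at least 27.6 points. All 18 genes had a brown-specific region nearest to them (39.9% of all genes), 131 in all against 8 for muscle, with 31 and 0 at Pparg, the nuclear receptor that directs adipocyte differentiation. Its promoter ranks were 97.0 and 97.3 against 81.9 and 83.5.

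The regulators of myogenesis showed the reverse. Of 12, 4 promoters were higher in muscle (4.63% of all) and 0 in brown adipose (4.13%). Beside Myod1 these were Myf6, the regulator of mature fibres, with 93.9 fed and 92.1 fasting against 0 and 0, Eya1 with 96.2 and 91.0 against 60.1 and 40.2, and Eya4 with 92.2 and 91.7 against 70.4 and 69.1. EYA proteins are transcriptional coactivators. The promoters of Myog, Mef2a, Mef2c, Mef2d, Six4, Tead1 and Tead4 had peaks in all 4 libraries and did not differ by 20 points in both states. At Myog the ranks were 71.4 and 83.1 in brown adipose and 87.5 and 89.5 in muscle. All 12 genes had muscle-specific regions nearest to them (40.9% of all genes), 230 against 30 for brown adipose, with 66 at Mef2c, 48 at Eya4 and 18 at Myf6.

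Genes of the embryonic tissue from which both lineages come ranked higher in muscle at the promoters past the rule, and were mixed in their regions. Of 10, 3 promoters were higher in muscle (4.63% of all) and 0 in brown adipose (4.13%). Myf5, which marks the shared precursors, had ranks of 59.2 fed and 61.2 fasting in muscle against 0 and 15.2 in brown adipose. Pax7, the marker of satellite cells, the stem cells of muscle, had 81.8 and 70.4 against 0 and 0. Sim1 had 80.9 and 80.3 against 56.0 and 56.8. Pax3 ranked low in all, with 12.3 and 40.2 in brown adipose and 0 and 30.6 in muscle, and its groups overlapped. En1 and Dmrt2, which mark the central dermomyotome, had ranks of at least 71.9 in all 4 libraries without a gap of 20 points. Nearest to the 10 genes lay 27 of the 28804 brown-specific regions, at 7 of the genes (39.9% of all genes). Of the 40526 muscle-specific regions, 37 lay at 6 of them (40.9% of all genes). En1 had 0 brown-specific and 15 muscle-specific regions and Pax7 2 and 12, while Pdgfra, a receptor of mesenchymal precursors, had 10 and 0 and Dmrt2 9 and 2.

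Genes of calcium release and excitation were the list with the largest share of muscle promoters. Of 18, 12 promoters were higher in muscle (4.63% of all) and 0 in brown adipose (4.13%), and their median difference was −51.7 points fed and −65.5 fasting, brown adipose minus muscle. Ryr1, the calcium release channel, had 95.4 fed and 95.1 fasting against 61.1 and 50.2. Atp2a1, the calcium pump of fast fibres, had 92.9 and 90.4 against 27.2 and 38.5, although the start of Rabep2 lies within 6000 bp. Trdn had 95.1 and 94.3 against 0 and 15.2. Chrna1 and Musk, parts of the neuromuscular synapse, and Sln, the inhibitor of the calcium pump, had no peak in brown adipose. Atp2a2, the pump of slow fibres that many other cells use, was open in all 4, with 96.1 and 98.2 in brown adipose and 95.5 and 94.5 in muscle. Nearest to the 18 genes lay 292 muscle-specific regions, at 17 of the genes (40.9% of all genes). The 7 brown-specific regions lay at 4 of them (39.9% of all genes).

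Sarcomere genes had many muscle-specific regions around them, and some of their promoters were past the rule. Of 26, 7 promoters were higher in muscle (4.63% of all) and 0 in brown adipose (4.13%). They were Tnnt3 and Tnni2, which code for troponins of fast fibres, Myh1 and Myh4, which code for fast myosin heavy chains, Neb, Tcap and Xirp2. The starts of Syt8 near Tnni2, of Pnmt and Stard3 near Tcap and of Klc3 near Ckm lie within 6000 bp and can share their peaks. Myh4 had 90.9 fed and 83.2 fasting against 54.97 and 0. Other genes of fast fibres were not past the rule. Tnnc2, also a fast troponin, had 93.7 and 94.4 against 90.35 and 88.6, with the start of Snx21 within 6000 bp. Myh2, also a fast myosin heavy chain, ranked lower in muscle, with 63.55 and 43.6 against 66.5 and 69.1. Acta1, the skeletal actin, had 93.7 and 92.2 against 75.7 and 56.8, a gap of 16.6 points, and Ckm, the muscle creatine kinase, 94.9 and 95.8 against at most 77.0, a gap of 17.9. Myh7, the slow myosin heavy chain, was without a peak in both muscle libraries and had 15.2 in fasting brown adipose. Nearest to the 26 genes lay 431 muscle-specific and 10 brown-specific regions, and 23 of the 26 had at least 1 muscle-specific region (40.9% of all genes). The myosin heavy chain genes lie side by side and are near copies, so reads among them may not be placed with certainty.

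The genes of mitochondria and fat oxidation were open in both tissues. Of 19, 0 promoters were higher in either tissue by the 20-point rule, which is near the 4.13% and 4.63% of all promoters. Their median rank was 96.1 fed and 98.1 fasting in brown adipose and 97.6 and 97.7 in muscle, against 93.4, 94.3, 94.4 and 93.9 over all 17027 promoters. Cpt1b, the muscle form of the enzyme that lets fatty acids enter mitochondria, had 92.6 and 95.8 against 94.2 and 94.8, with the start of Chkb within 6000 bp, and Ucp3 had 89.0 and 93.6 against 94.1 and 91.4. A brown-specific region was nearest to 14 of the 19 genes (39.9% of all genes), and a muscle-specific region to 12 (40.9%). Around the 19 genes lay 99 brown-specific and 35 muscle-specific regions. Of these, 32 and 10 were at Ppargc1a, the coactivator of mitochondrial biogenesis that both tissues use. Of 10 genes of glycolysis and glycogen, 2 promoters were higher in muscle (4.63% of all) and 0 in brown adipose (4.13%): Pgam2, with 94.5 and 93.0 against 42.0 and 53.0, and Ampd1, with 89.3 and 82.9 against 0 and 0.

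Genes that mark position along the body also differed. Of 18, 4 promoters were higher in muscle (4.63% of all) and 0 in brown adipose (4.13%): Hoxc9 with 69.3 fed and 70.1 fasting against 0 and 0, Hoxc10 with 93.6 and 91.9 against 53.4 and 59.2, Hoxa11 with 79.7 and 76.3 against 8.55 and 43.8, and Lbx1, a factor of migrating muscle precursors, with 91.5 and 92.0 against 35.9 and 52.1. HOX genes toward this end of the clusters are used in the posterior trunk and limbs. Neither the muscle nor the brown adipose depot was named in the sources used here, so tissue and body position cannot be told apart. The starts of Hoxc5 and Hoxc10, and those of Hoxa10 and Hoxa11, lie within 6000 bp of each other and can share a peak.

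Marker promoters of other cell types were ranked the same way, and their part in the differences was not tested. Of all 17027 promoters 4.13% were higher in brown adipose and 4.63% in muscle, the background for each count that follows. Of 6 endothelial markers, 0 were higher in either tissue, and their mean rank was 54.6 fed and 65.3 fasting in brown adipose and 55.2 and 73.7 in muscle. Of 6 fibroblast markers 0 were higher in either, with means of 77.0 and 60.03 against 70.9 and 69.7. Of 6 mural cell markers 2 were higher in muscle, Acta2 and Pdgfrb, with means of 56.4 and 43.1 against 65.0 and 67.3. Of 6 macrophage markers, 1 was higher in brown adipose (Cd68) and 2 in muscle (Csf1r and Spi1), with means of 17.7 and 25.9 against 29.9 and 39.1, and Adgre1 and Cx3cr1 were at 0 in all 4. The starts of Eif4a1 and Mpdu1 lie within 6000 bp of that of Cd68. The T and B cell genes Cd3e, Cd8a and Cd79a were at 0 in both brown adipose libraries, and Cd3e and Cd79a had ranks of 49.7 and 8.80 in fed muscle and 0 in fasting muscle. Of 5 Schwann cell markers 1 was higher in brown adipose (S100b, which adipocytes also use), with means of 79.3 and 71.9 against 54.7 and 52.9. Of 6 heart muscle markers 0 were higher in either, with means of 31.8 and 26.9 against 30.5 and 26.3, and Nkx2-5 and Nppa were at 0 in all 4.

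Motif matches were counted in 301 bp around the summit on both strands. Muscle-specific regions held the E-box CAGCTG, which MYOD1 and MYOG bind, in 26.97% (95% exact interval 26.5 to 27.4%), against 18.3% of brown-specific, 22.8% of shared regions and 16.3% of 32851 RefSeq promoter stretches of 300 bases. The E-box CAGGTG was found in 23.6% against 16.4%, 19.3% and 20.2%. The MEF2 consensus was found in 9.39% (9.10 to 9.67%) of muscle-specific, 3.54% of brown-specific and 3.24% of shared regions and 3.19% of promoters. Brown-specific regions held the NFI site TTGGCA in 30.1% (29.6 to 30.7%), against 22.3% of muscle-specific, 21.2% of shared regions and 14.1% of promoters. The EBF core CCCNNGGG, searched with T before and A after it, was found in 2.95% of brown-specific, 0.753% of muscle-specific and 1.84% of shared regions and 0.904% of promoters. The C/EBP consensus was found in 3.65%, 0.886%, 1.59% and 1.19%, and a direct repeat of AGGTCA spaced by 1 base, to which PPARG binds with RXR, with at most 1 base different, in 1.74%, 0.587%, 0.711% and 0.554%. The TEAD motif GGAATG was found in 17.7% (17.2 to 18.1%) of brown-specific and 17.4% (17.0 to 17.7%) of muscle-specific regions, and the AP-1 motif TGACTCA was found in 6.71% of brown-specific and 9.59% of muscle-specific regions. The ETS motif CCGGAAGT was found in 0.250% and 0.308%, against 2.37% of shared regions and 3.89% of promoters. A match is a run of letters and shows no bound factor.

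The differences were not uniform over strength. From the weakest to the strongest bin of muscle-specific regions the MEF2 share went from 5.47% to 15.5%, while in brown-specific regions it was 3.43% and 2.81%. From the weakest to the strongest bin of brown-specific regions the NFI share went from 23.9% to 34.4%, and the C/EBP share from 2.74% to 4.57%. In muscle-specific regions NFI went from 19.3% to 25.2%, and C/EBP was 0.849% and 0.869%. The mean GC content of the windows was 47.2% in brown-specific, 48.3% in muscle-specific and 54.3% in shared regions. Within 5 bands of GC content, the E-boxes, MEF2 and AP-1 were more frequent in muscle-specific regions, and EBF, NFI, C/EBP and the AGGTCA repeat in brown-specific regions, in each of the 5, while TEAD and ETS went either way. At a GC content from 40 to 45%, for example, MEF2 was found in 14.7% of muscle-specific and 4.97% of brown-specific regions.

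**Figure D4:**
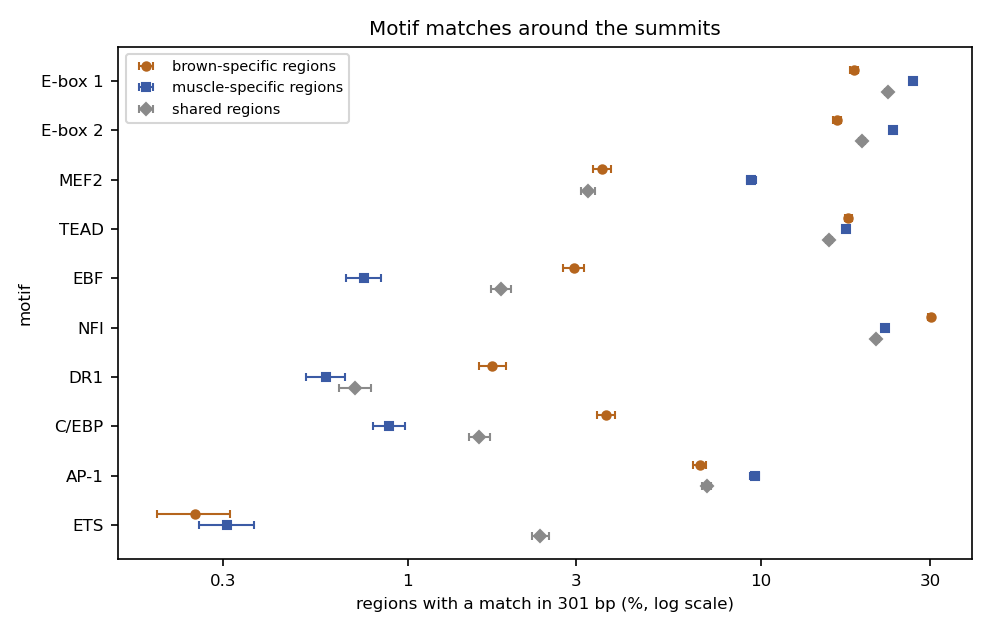
Share of brown-specific, muscle-specific and shared regions with a match to each of 10 motifs in 301 bp around the summit (%, log axis), with 95% exact binomial intervals. E-box 1 is CAGCTG and E-box 2 is CAGGTG; the E-boxes and MEF2 stand to the right for muscle, and EBF, NFI, DR1 (the repeat of AGGTCA) and C/EBP for brown adipose.

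The 50499 shared regions were close in rank. Each brown adipose library was set against the muscle library of the same state only, a looser rule than that for promoters. By it, 7.64% (3857) ranked at least 20 points higher in brown adipose in both states, and 5.39% (2721) in muscle. The median difference was −1.52 points fed and 1.19 fasting, brown adipose minus muscle. After merging over the tissues, the number of shared regions was 55.1% of that of brown adipose regions and 45.6% of that of muscle regions. A merged region can hold several regions of a tissue, so these are ratios of counts and not shares of members.

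The related origin of the tissues raised the question whether their open regions overlap more than those of other pairs. The bp shared between brown adipose and muscle, over the bp open in either (the Jaccard index), was 0.350 fed and 0.337 fasting, with a mean of 0.343. Over the other 27 pairs of the 8 tissues the index ranged from 0.209 to 0.450 with a median of 0.293. The pair held the 5th place, after brown with white adipose (0.450), muscle with heart (0.373), white adipose with lung (0.359) and muscle with white adipose (0.344). By an exact permutation test over the 28 pairs, one-sided, the p was 0.179 (0.286 after Benjamini-Hochberg adjustment over 2 tests), where the smallest possible is 0.0357. Regions open in all 4 libraries of the pair with no peak in the other 12 lists numbered 355, the 8th place among pairs, whose counts ranged from 25 to 3891 with a median of 261. The exact permutation p of that count, one-sided, was 0.286 (0.286 adjusted). As a share of the pair's regions open in all 4 libraries, the count was 0.698%, the 12th place, with a median of 0.556% over the other 27 pairs. Neither the index nor the count showed the pair to stand apart from the other pairs, and pairs share tissues, so they are not independent.

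**Figure D5:**
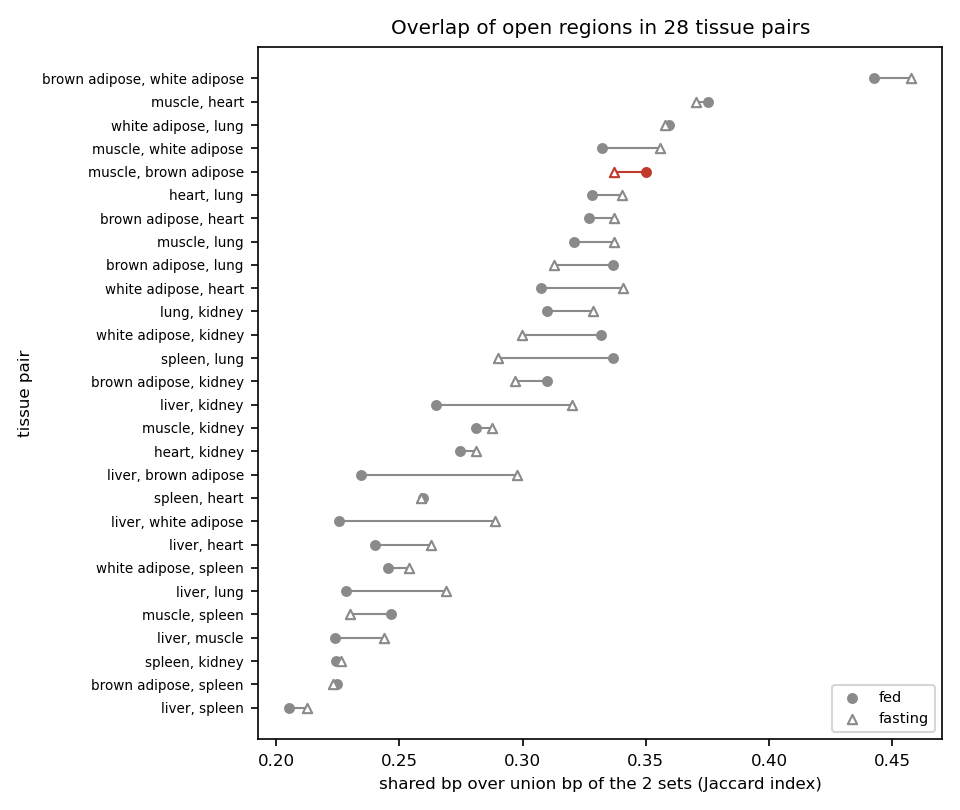
Jaccard index of the open sets (shared bp over union bp) for the 28 pairs of 8 tissues, fed as filled circles and fasting as open triangles, ordered by the mean of both states. Brown adipose with muscle, in red, holds the 5th place at 0.350 fed and 0.337 fasting, well below brown with white adipose at 0.443 and 0.458.

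Of the 355 regions, 23.4% (19.1 to 28.1%) lay at a start, and their median ranks were 55.5 and 61.4 in brown adipose and 62.3 and 56.5 in muscle, fed and fasting. The 10 strongest were nearest to Uchl5, Arrdc3, Ebf3, Rfx7, Cmya5, Chst9, Fer1l6, Zic1, Kank1 and Trappc9. That at Arrdc3, an arrestin-like regulator of adrenergic receptors, lay 11024 bp from the start (chr13:80901445-80901999) and had ranks of 88.6 and 92.0 in brown adipose and 92.0 and 87.2 in muscle. That in an intron of Cmya5, a muscle protein of the sarcomere edge (chr13:93135570-93136037), had 81.0 and 86.9 in brown adipose and 91.2 and 85.3 in muscle. That at Zic1, a zinc finger gene used as a marker of classical brown adipocytes, lay 109 bp from the start (chr9:91365731-91366037) and had 79.0 and 88.4 in brown adipose and 75.2 and 74.4 in muscle, in an intron. Among listed genes, Hk2 and Tbx15 each had 2 of these regions nearest to them, and Actn2, Eya1, Myh2, Myl1 and Zic1 had 1 each.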

How the data were processed

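ATAC-Seq peak lists of mouse tissues were used as deposited. Per the labels and the study's methods, the authors trimmed and aligned the reads (Bowtie2, GRCm38), discarded duplicates and reads that were unmapped or mitochondrial, and moved read ends to the Tn5 cut. MACS2 then listed peaks at a p of 0.01, less those in blacklisted regions, with at most 300000 rows per list. Tool versions are not given in the sources used here. Per library and not over pooled libraries, the deposited values are the fold enrichment (a ratio to the local background), the −log10 p and the −log10 q of each peak. The lists give no read totals. The fold and p of 100% of peaks within a tolerance of 0.01 solved to whole tags in 3 lists, which gave the background per library.

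From these values, peaks with the same coordinates were reduced to the strongest, ranked by −log10 p and merged over states, with Python 3.11.15, numpy 2.4.6, pandas 2.3.3 and scipy 1.17.1. Genes were those of GENCODE vM21; sequences were read from the RefSeq copy of GRCm38 with pysam 0.24.0, and promoter stretches from RefSeq. All 10 steps gave the known answer on simulated data. The named genes were markers and listed genes, and the 10 first by promoter gap, by region rank, by number of regions and by rank of the regions shared only by the pair. The comparison, its members and the 16 gene lists were chosen with earlier results of these data known. Some genes and 1 motif are not reported here. Intervals cover counting error only, since tags without molecular identifiers are not independent molecules.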

Additional observations from a re-analysis of the deposited data

Results flagged for a closer look

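At 2 listed promoters the difference between the tissues, brown adipose minus muscle, had opposite signs in the 2 states by more than 20 rank points each way; 1 library per state allows no test of that reversal, and it was not tested. The promoter of Dcn, the gene of the matrix protein decorin made by fibroblasts, differed by 23.8 points fed (77.0 in brown adipose, 53.3 in muscle) and by −71.1 fasting (0 in brown adipose, 71.1 in muscle). The promoter of Myh6, the heart myosin heavy chain, differed by −27.1 fed (0 and 27.1) and by 25.03 fasting (25.03 and 0). Over all 17027 promoters 114 reversed in this way.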

How the results depend on the processing

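Muscle had more specific regions than brown adipose under each alternative tried, and more promoters higher by the rule except with fasting libraries alone. For brown adipose and muscle, specific regions numbered 16601 and 21973 at a −log10 q of at least 6, and 8345 and 9359 from the 50000 strongest regions. Fed or fasting libraries alone, with no second state required, gave 59172 to 74285 and 80854 to 94226. The share at a start became 11.1% and 10.5% with a window of 1000 bp and 18.1% and 16.7% with protein-coding starts, and 25.7 to 27.8% and 24.7 to 25.5% with 1 state alone. Promoters higher by 40 points numbered 382 and 408; 1 state alone gave 1091 to 1506 and 1213 to 1479. With the tissues paired within each state, since the same mice gave both, and 20 points required in both pairs (chosen after seeing the data), they numbered 777 and 855; no paired test was run on the 2 pairs. White adipose held 62.1% of brown-specific regions when any listed peak counted and 36.9% at a −log10 q of at least 6, and heart 41.3% and 6.24% of muscle-specific regions, with 14.1% for distal regions. The Jaccard index ranged from 0.337 to 0.369 and held places 4 to 9, and the regions shared only by the pair numbered 16 to 2600 at places 7 to 16, and the lowest exact p was 0.143. No motif difference changed sign; some changed in size, with the window of 50 bp either side or the stricter q. The cause of these changes was not tested. Depth limits what can be called absent: a region with no listed peak may be a weak one.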
